A study of Mus musculus with 6 samples.

Results

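Transcripts of the 5 dopamine receptor genes (Drd1, Drd2, Drd3, Drd4 and Drd5), of Ppp1r1b and of Adora2a were followed in mouse olfactory bulbs after occlusion of the left naris. The 7 genes were chosen by name, and each was found by its Ensembl identifier among the 22095 genes of the read count table. Poly(A) RNA was sequenced from both bulbs of 3 ICR mice, an outbred stock, numbered 1037, 1038 and 1039. In each mouse a silica gel plug tied with suture was placed in the naris under anaesthesia at postnatal day 30, and the bulbs were taken 60 days later after perfusion with saline. The bulb on the plugged side is the left one, and the right bulb of that animal served as the open side. All mice carried a plug, so a difference between the sides that exists without occlusion cannot be told apart from one that follows it. No genotype, transgene or drug is named in the labels, and the sex of the mice is not used here.

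The 6 libraries held 14571453 to 15590938 counts. The library labelled left 1038 went against its label. The summed level of 9 markers of cerebellar granule cells was 6674 CPM (read counts scaled to a library total of 1000000) in it and 451 to 493 CPM in the other 5, and the bulb interneuron gene Dlx1 stood at 0.618 CPM against 304 to 358 CPM. Across genes, log2 CPM in it correlated with that of the remaining libraries at 0.867 to 0.874, where pairs of those correlated at 0.983 to 0.992. It is therefore given apart from the groups, and the comparison of sides rests on 2 left libraries (1037 and 1039) and 3 right libraries. The sides were compared with edgeR's quasi-likelihood test over the 14412 genes with enough counts, and a gene is said to have risen or fallen at a Benjamini-Hochberg adjusted p under 0.05. Fold changes are log2 of left over right, all tests are two-sided, and intervals of a single library cover counting error only.

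Dopamine acts through G protein-coupled receptors of a pair of classes. The D1 class, encoded by Drd1 and Drd5, couples to the stimulatory proteins Gs and Golf and raises cyclic AMP, while the D2 class, encoded by Drd2, Drd3 and Drd4, couples to Gi and Go and lowers it. Ppp1r1b encodes DARPP-32, which inhibits protein phosphatase 1 once protein kinase A has phosphorylated it, and Adora2a encodes an adenosine receptor that raises cyclic AMP through Golf and Gs and is a partner of D2 receptors in striatal neurons. In the bulb, dopamine is made by juxtaglomerular interneurons that contain tyrosine hydroxylase (Th), and D2 receptors on the terminals of sensory axons are known to restrain their glutamate release. The cell bodies of those axons lie in the nose, so the bulb RNA need not hold their receptor transcripts.

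Drd1 and Drd2 are the pair on which the results turn, so the sequence before their start sites is shown. The RefSeq windows of 250 bases before to 50 after a start (GRCm38.p6) held an entry for Drd1, Drd2, Drd3, Drd4 and Drd5 among the 7 genes. Only bases upstream of every annotated start of the gene are printed, 5′ to 3′ on the gene's strand, as 203 bases for Drd1 at chr13:54055706-54055908 on the minus strand and 207 bases for Drd2 at chr9:49340153-49340359 on the plus strand. Capitals mark the motif GGGCGG on either strand, which the printed stretch of Drd2 holds and that of Drd1 does not. RefSeq gives Drd1 a further start inside the gene, whose window is not printed. The Drd1 matches lie 16 bases after the first start and 133 bases before the further one.
Drd1: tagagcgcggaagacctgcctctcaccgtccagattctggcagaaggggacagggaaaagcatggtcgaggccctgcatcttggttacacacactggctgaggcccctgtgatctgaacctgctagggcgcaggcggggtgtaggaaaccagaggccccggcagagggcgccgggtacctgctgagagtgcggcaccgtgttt
Drd2: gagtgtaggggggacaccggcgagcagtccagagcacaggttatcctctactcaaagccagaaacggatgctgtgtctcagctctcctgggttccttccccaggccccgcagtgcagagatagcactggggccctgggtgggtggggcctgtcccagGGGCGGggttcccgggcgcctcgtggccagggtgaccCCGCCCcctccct
The whole windows were searched on both strands for 6 motifs and set against 32851 windows of the same length. The full cyclic AMP response element TGACGTCA was in 1.79% of these and its shorter form CGTCA, which the full one contains, in 20.8%. The AP-1 motif TGANTCA was in 7.81%, the EGR motif GCGTGGGCG in 0.612%, the GC box GGGCGG in 35.7% and the TATA box TATAAA in 13.6%. The windows of Drd1 (both), Drd2, Drd4 and Drd5 held GGGCGG and no other motif of this set, and that of Drd3 held none of them. The windows of Th and Drd3 lie inside the annotated span of their genes. That of Th held TGACGTCA 45 bases before the start and TGANTCA 210 bases before it, matches that none of the receptor windows had. It also held GGGCGG 220 bases before the start. These are matches of letters and describe the sequence only.

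Drd1 was the dopamine receptor gene with the most reads on the open side and fell about 5-fold on the plugged side. It had 72, 79 and 77 reads in right 1037, 1038 and 1039, which is 4.62, 5.23 and 5.26 CPM. In left 1037 and left 1039 it had 11 and 18 reads, which is 0.713 and 1.195 CPM. Each left library lay below each right one, and their 95% Poisson intervals did not overlap, as the plot of levels by library shows. The left libraries averaged 0.954 ± 0.341 CPM (SD, n = 2) and the right ones 5.04 ± 0.362 CPM (SD, n = 3), a ratio of right to left of 5.28. Drd1 fell by 2.47 on the log2 scale (SE 0.29, 95% interval -3.13 to -1.82, edgeR adjusted p = 0.00142). Within mouse 1037 the log2 ratio of CPM was -2.70, and within mouse 1039 it was -2.14. Drd1 lies on chromosome 13, 54051183 to 54055705 of GRCm38 on the minus strand (ENSMUSG00000021478), where no other annotated gene overlaps it. In the library labelled left 1038 Drd1 had 0 reads, which allows up to 0.206 CPM by a limit of 3 reads and 0.253 CPM by the upper end of the 95% Poisson interval that is plotted. With that library counted as a left bulb the value was -3.03 (SE 0.89, adjusted p = 0.554) and the call ended. In bulk tissue, fewer cells that express Drd1 and less of its RNA per cell cannot be told apart.

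**Figure D1:**
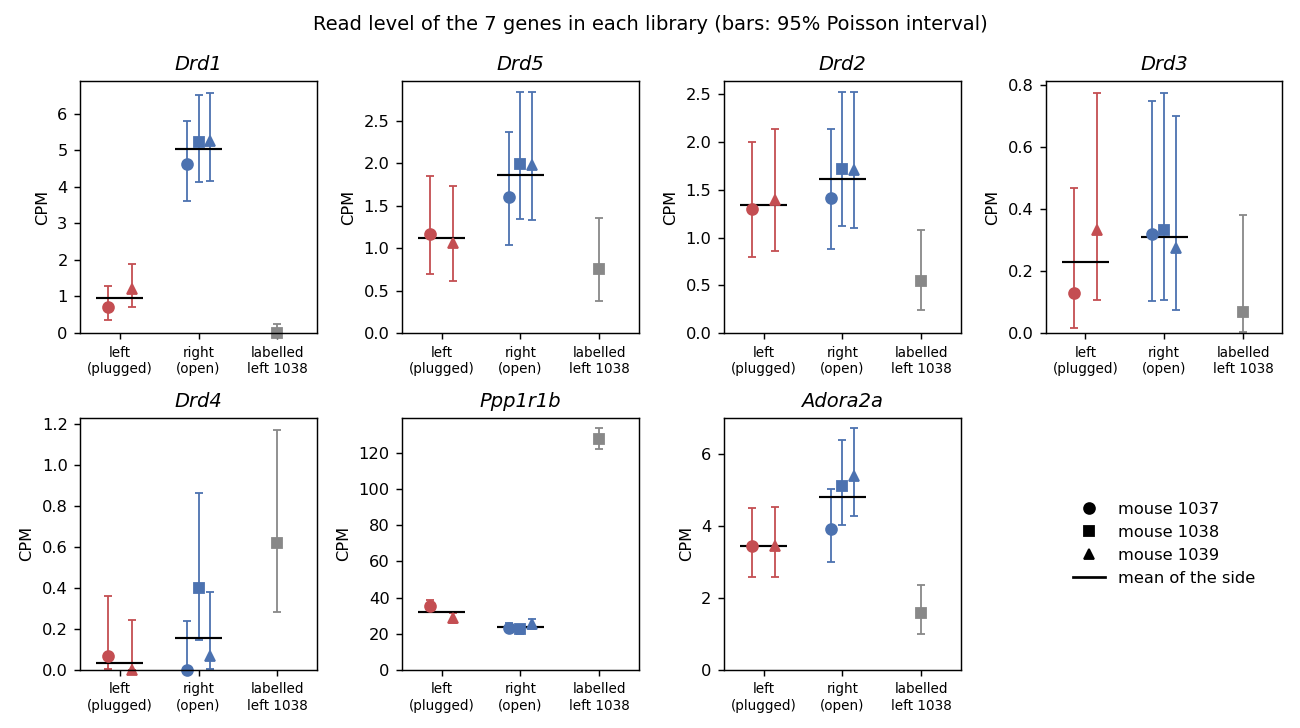
Read level in CPM of the 7 genes in each library (points; bars are 95% Poisson intervals, horizontal lines the mean of a side), with the library labelled left 1038 in grey. Drd1 sits at 0.713 and 1.195 CPM in the left libraries and at 4.62 to 5.26 CPM in the right ones, and Ppp1r1b reaches 128 CPM in the library labelled left 1038.

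Drd5, which encodes the other receptor of the D1 class, was lower on the left by less and did not pass the test. It had 1.17 and 1.06 CPM in left 1037 and left 1039, from 18 and 16 reads. In right 1037, 1038 and 1039 it had 1.60, 1.99 and 1.98 CPM, from 25, 30 and 29 reads. The groups did not overlap, but the Poisson intervals of single libraries did. The log2 fold change was -0.81 (SE 0.33, 95% interval -1.55 to -0.07, edgeR adjusted p = 0.163). Drd5 (ENSMUSG00000039358, chromosome 5, 38319367 to 38322518, plus strand) shares 1531 exonic bases with the antisense gene Gm26560, which is not analysed here. Strand use in counting is not stated, so reads of the pair cannot be told apart.

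Drd2, the main gene of the D2 class, showed no difference detectable at this depth. Its level was 1.30 and 1.39 CPM in left 1037 and left 1039, from 20 and 21 reads. It was 1.41, 1.72 and 1.71 CPM in right 1037, 1038 and 1039, from 22, 26 and 25 reads. The groups did not overlap, but the highest left library and the lowest right one nearly met, and the Poisson intervals of all 5 libraries overlapped. The log2 fold change was -0.34 (SE 0.33, 95% interval -1.07 to 0.39, edgeR adjusted p = 0.572). A fall as large as that of Drd1 lies outside this interval, while a smaller fall or a small rise lies within it. Drd2 (ENSMUSG00000032259) lies on chromosome 9, 49340627 to 49408177, plus strand, with no annotated overlap, and counts per gene do not separate its long and short isoforms.

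Drd3 and Drd4, the other genes of the D2 class, had too few reads to be tested. Drd3 (ENSMUSG00000022705) lies on chromosome 16, 43754026 to 43822932, and Drd4 (ENSMUSG00000025496) on chromosome 7, 141292006 to 141296464, both on the plus strand. Drd3 had 2 and 5 reads on the left and 5, 5 and 4 on the right, so the sides overlapped. Drd4 had 1 and 0 reads on the left and 0, 6 and 1 on the right, with 6 of its 7 right reads in right 1038. Without the filter on low counts Drd3 had a log2 fold change of -0.49 (SE 0.80, adjusted p = 0.777) and Drd4 -2.05 (SE 1.72, adjusted p = 0.572) by edgeR. In the library labelled left 1038 Drd4 had 9 reads, 0.618 CPM, with a 95% Poisson interval of 0.282 to 1.17 CPM that overlaps that of right 1038 (0.146 to 0.865 CPM).

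Ppp1r1b, the gene of the phosphatase inhibitor DARPP-32, differed in the opposite direction without passing the test. It stood at 35.4 and 28.5 CPM in left 1037 and left 1039, from 546 and 429 reads. In right 1037, 1038 and 1039 it stood at 23.3, 22.4 and 25.2 CPM, from 363, 338 and 369 reads. Both left libraries were above all right ones, and left 1037 was farther above them than left 1039. The log2 fold change was 0.35 (SE 0.11, 95% interval 0.10 to 0.60, edgeR adjusted p = 0.0818), with 0.60 within mouse 1037 and 0.18 within mouse 1039. It passed when scaled by total library size only (0.44, adjusted p = 0.0376) and without left 1039 (0.51, adjusted p = 0.0290), and the value was 0.19 without left 1037 (adjusted p = 0.439). The library labelled left 1038 had 128 CPM, above every other library. Ppp1r1b (ENSMUSG00000061718) lies on chromosome 11, 98348404 to 98357796, plus strand, and shares 460 exonic bases with 1700003D09Rik on the opposite strand, which is not analysed here.

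Adora2a, the gene of the adenosine receptor that raises cyclic AMP, was lower on the left without passing the test. Its level was 3.43 and 3.45 CPM in left 1037 and left 1039, from 53 and 52 reads. In right 1037, 1038 and 1039 it was 3.91, 5.10 and 5.39 CPM, from 61, 77 and 79 reads. The left libraries were nearly equal and below the right ones, of which right 1037 was the lowest. The log2 fold change was -0.56 (SE 0.22, 95% interval -1.06 to -0.06, edgeR adjusted p = 0.157). Adora2a (ENSMUSG00000020178) lies on chromosome 10, 75316877 to 75334784, plus strand, with no annotated overlap. The library labelled left 1038 had 1.58 CPM.

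Of the 7 genes, 5 had enough counts to be tested, and 1 of them fell and 0 rose. Among all 14412 genes tested, 6.46% fell and 3.16% rose, 9.62% in all. At an unadjusted p under 0.05 there were 4 of the 5, against 24.8% of all genes. With the mouse as a replicate block edgeR again called Drd1 alone, against 7.36% of all genes lower and 3.41% higher, 10.8% in all. DESeq2 called Drd1 and gave no adjusted p for Drd2 and Drd5, against 6.51% lower and 3.07% higher, 9.58% in all. In CPM the sides did not overlap for 4 of the tested genes on the lower side and for Ppp1r1b on the higher side, against 13.2% and 33.2% of all genes tested. Scaling decides the split over all genes, which was 456 higher and 931 lower with TMM factors and 975 higher and 589 lower by total library size only. Each of the 5 tested genes kept the sign of its value in every alternative fit that was run. With all 6 libraries edgeR called 0 of 14209 genes, which is 0.0%, with 1196 (8.42%) at an unadjusted p under 0.05. No other tool was run on 6 libraries. Drd2, Drd5, Ppp1r1b and Adora2a then had -0.63, -0.95, 1.42 and -0.82, with an adjusted p of 0.554 to 0.570.

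**Figure D2:**
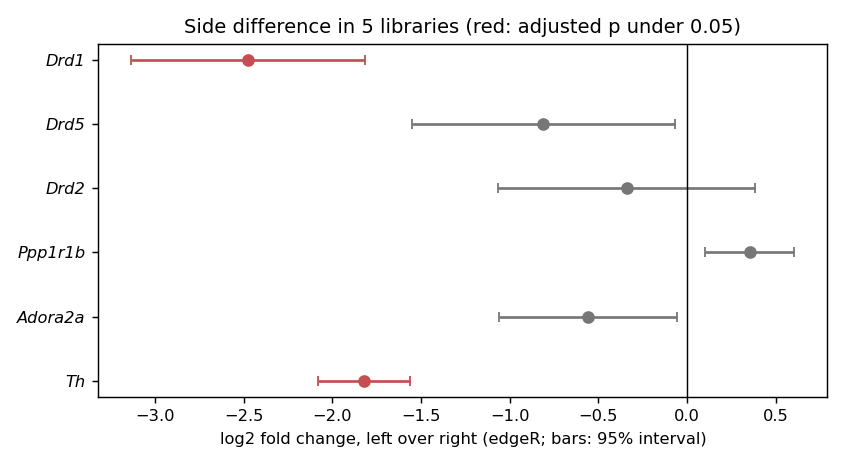
Log2 fold change, left over right, of the 5 tested genes and of Th in 5 libraries (points, edgeR; bars are 95% intervals; red where the adjusted p is under 0.05). The interval of Drd1 runs from -3.13 to -1.82 and that of Drd2 from -1.07 to 0.39.

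The loss of Drd1 reads changed the mix of dopamine receptor transcripts. The 5 receptor genes together held 3.37 and 3.98 CPM in left 1037 and left 1039. In right 1037, 1038 and 1039 they held 7.95, 9.67 and 9.28 CPM. Drd1 took 21.2% (95% Wilson interval 12.2 to 34.0%) of these reads in left 1037 and 30% (19.9 to 42.5%) in left 1039. Its share was 58.1% (49.3 to 66.4%) in right 1037, 54.1% (46.0 to 62.0%) in right 1038 and 56.6% (48.2 to 64.7%) in right 1039. The left intervals lay below the right ones. The other 4 receptor genes summed to 2.72 ± 0.0933 CPM in left libraries (SD, n = 2) and to 3.93 ± 0.558 CPM in right ones (SD, n = 3). The D1 class held 2.07 ± 0.267 CPM on the left and 6.89 ± 0.581 CPM on the right, and the D2 class 1.61 ± 0.167 CPM on the left and 2.08 ± 0.360 CPM on the right. The library labelled left 1038 held 1.99 CPM over the 5 genes, from 29 reads, with none from Drd1.

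**Figure D3:**
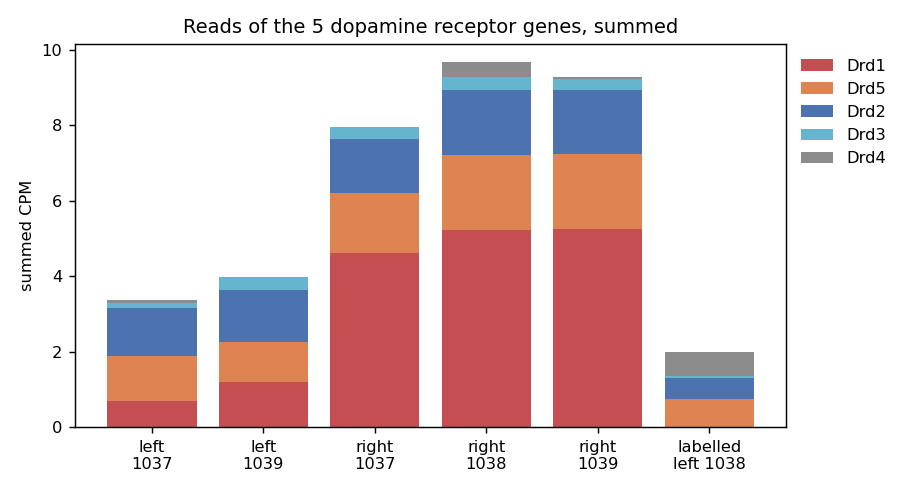
Summed CPM of the 5 dopamine receptor genes in each library, divided by gene (stacked bars). The bars reach 3.37 and 3.98 CPM in the left libraries and 7.95 to 9.67 CPM in the right ones, and the Drd1 segment differs most.

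Levels of different genes were compared per kilobase of the longest annotated transcript. On the right, Ppp1r1b stood at 11.8 ± 0.715 CPM per kb (SD, n = 3), followed by Adora2a at 1.85 ± 0.302 and Drd1 at 1.41 ± 0.102 CPM per kb. Drd2 and Drd5 followed at 0.633 ± 0.0689 and 0.589 ± 0.0696 CPM per kb, which did not differ beyond their spread. Drd3 stood at 0.180 ± 0.0181 and Drd4 at 0.0555 ± 0.0759 CPM per kb. On the left the order was Ppp1r1b at 16.0 ± 2.44, Adora2a at 1.33 ± 0.00495, Drd2 at 0.528 ± 0.0273, Drd5 at 0.353 ± 0.0234 and Drd1 at 0.267 ± 0.0953 CPM per kb (SD, n = 2). Drd1 thus passed from the third to the fifth place, although it and Drd5 on the left differed by less than the SD of Drd1. Drd3 at 0.135 and Drd4 at 0.0116 CPM per kb came last. With the length of all annotated exons in place of the longest transcript, Ppp1r1b stood at 8.07 CPM per kb on the right and 10.9 on the left and Adora2a at 1.57 and 1.12, and the order was the same.

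Whether Drd1 changed more than Drd2 was asked within each library, where a ratio of reads does not depend on scaling. Drd1 had more reads than Drd2 in every right library, with log2 ratios of 1.71, 1.60 and 1.62 in right 1037, 1038 and 1039. It had fewer in both left libraries, with -0.86 in left 1037 and -0.22 in left 1039. The left mean was lower by 2.19, larger than the SD of 0.453 on the left (n = 2) and of 0.057 on the right (n = 3), with p = 0.2 in an exact permutation test. That is the smallest p that the 10 arrangements of 2 and 3 libraries allow, so none of the 5 gene pairs compared could pass, and each had p = 0.2 in the exact test, also after adjustment over the pairs. For Drd1 over Ppp1r1b the left mean was lower by 2.87, and for Drd2 over Ppp1r1b by 0.69, without overlap of the sides.

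Against Th, whose enzyme limits the rate at which dopamine is made, the ratios of Drd1 and Drd2 differed between the sides in opposite directions. Th averaged 44.0 ± 7.08 CPM in left libraries (SD, n = 2) and 147 ± 15.9 CPM in right ones (SD, n = 3), and fell by 1.82 on the log2 scale (edgeR adjusted p = 8.11e-05). The log2 ratio of Drd2 to Th was -5.24 and -4.81 in the left libraries and -6.68, -6.57 and -6.28 in the right ones, so it was higher on the left by 1.49. The log2 ratio of Drd1 to Th was -6.10 and -5.03 on the left and -4.97, -4.97 and -4.65 on the right, lower on the left by 0.70. That difference rests on left 1037, since it was -0.16 without that library and -1.24 without left 1039.

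**Figure D4:**
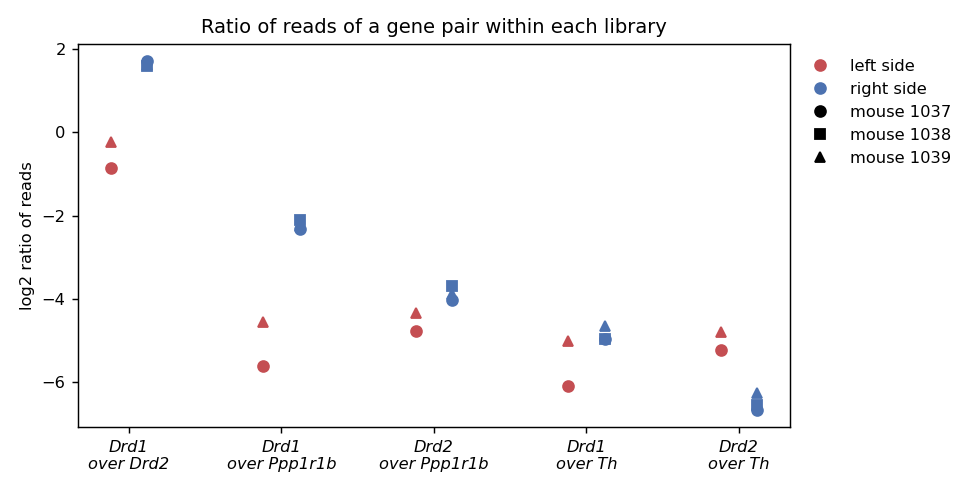
Log2 ratio of the reads of a gene pair within each library (points, shaped by mouse and coloured by side). For Drd1 over Drd2 the left libraries sit at -0.86 and -0.22 and the right ones at 1.60 to 1.71, and for Drd2 over Th the left libraries sit above the right ones.

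The pattern of Drd1 over the 5 libraries was compared with those of 11807 genes of at least 5 CPM on average, by the root mean square difference of log2(CPM + 0.5) centred on its mean. The closest were Rxfp1, a relaxin receptor gene (0.228), Crh, corticotropin-releasing hormone (0.254), and Adcyap1, which encodes the peptide PACAP (0.256). Their log2 fold changes were -1.77, -2.01 and -2.34, each smaller in size than the -2.47 of Drd1. The 0.5 added to CPM shrinks differences at levels as low as those of Drd1. Genes as low as Drd1 on average were not searched. Rxfp1 stood at 4.08 and 8.16 CPM in left 1037 and left 1039 and at 20.7, 17.6 and 20.8 CPM in right 1037, 1038 and 1039. As for Drd1, left 1037 was the lowest of its libraries. The closest patterns to Drd2 were those of Nars2 (0.008), Efhd2 (0.020) and Rbp4 (0.022), with log2 fold changes of -0.28, -0.27 and -0.29. Those closest to Ppp1r1b were Syde1 (0.027), Ahnak (0.031) and Zfp217 (0.035), with 0.38, 0.33 and 0.40. These likenesses are descriptions over 5 libraries, in which most of the spread is between the sides.

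Most genes of the G proteins and adenylyl cyclases of this pathway differed little between the sides. Of the 13 genes of this list 1 fell and 0 rose (median log2 fold change -0.06, against 0.005 over all genes tested, of which 6.46% fell and 3.16% rose). Scaling by library totals alone turned that median to 0.02. The gene that fell was Adcy1, a calcium-activated adenylyl cyclase, by 0.38 (SE 0.06, edgeR adjusted p = 0.00694). Adcy5, also a cyclase gene of the list, had -0.04 (SE 0.07, edgeR adjusted p = 0.789). DESeq2, limma-voom and edgeR with the replicate block each called 2 genes of the list, both lower. Gnas, which encodes Gs, and Gnao1, which encodes Go, had 0.03 and 0.15 and did not pass (adjusted p = 0.814 and 0.203). Gnal, the gene of Golf, stood at 79.0 and 72.7 CPM in left 1037 and left 1039 and at 97.2, 79.1 and 83.6 CPM in right 1037, 1038 and 1039. Left 1037 and right 1038 were thus nearly equal, and Gnal had a log2 fold change of -0.27 (SE 0.09, edgeR adjusted p = 0.101). Of the 13 genes 5 had values above 0 and 8 below.

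Among 21 measured regulators of these receptors 2 rose and 4 fell, against 3.16% and 6.46% of all genes tested. The median was -0.02, or 0.06 when library totals alone set the scale. Without right 1038, and likewise by DESeq2 with the replicate block, 2 genes in all were called, both lower. Without right 1039 there were 3. Arrb2, the gene of beta-arrestin 2, averaged 62.5 ± 0.737 CPM in left libraries (SD, n = 2) and 45.7 ± 1.93 CPM in right ones (SD, n = 3), and rose by 0.37 (SE 0.07, edgeR adjusted p = 0.0146). Grk3, a kinase that phosphorylates active receptors, rose by 0.35 (SE 0.08, adjusted p = 0.0212). Both encode proteins known to end receptor signalling at the membrane. The call of Arrb2 ended without right 1038 (adjusted p = 0.0559), and that of Grk3 when left 1037, right 1038 or right 1039 was dropped (largest adjusted p = 0.0711). Both calls also ended by DESeq2 with the replicate block, at an adjusted p of 0.395 for Arrb2 and 0.2 for Grk3. Rgs7bp, an anchor of RGS proteins, and Rgs4, which speeds the turn-off of Gi and Go, fell by 0.42 and 0.49 (adjusted p = 0.00235 and 0.00460). Ppp1r9b, the gene of spinophilin, and Arrb1 had -0.17 and -0.08 and did not pass.

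Downstream, 3 of 22 genes of protein kinase A, phosphatases and their partners fell and 0 rose, against 6.46% and 3.16% of all genes tested. The median was -0.11, or -0.02 when library totals alone set the scale, and 1 gene was called without right 1037. Pde1b, a phosphodiesterase that degrades cyclic nucleotides, fell by 0.40 (SE 0.06, edgeR adjusted p = 0.00341), and Arpp21, a cyclic AMP-regulated phosphoprotein, by 0.35 (SE 0.07, adjusted p = 0.0160). The call of Arpp21 ended without left 1039 or right 1037 (adjusted p = 0.0695 and 0.0598). Pde10a, a phosphodiesterase abundant in striatal neurons, fell by 0.61 (SE 0.17, adjusted p = 0.0456), a call that ended without left 1037 or any right library (adjusted p up to 0.198, with -0.37 without left 1037) and by DESeq2 (adjusted p = 0.157). It was not called when scaled by total library size only (adjusted p = 0.0729). Prkar1a and Ppp3ca, the genes of the list with the most reads, had -0.21 and 0.12 and did not pass.

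Of 14 genes known to respond to cyclic AMP 5 fell and 0 rose, and the median was -0.51. Over all genes tested 6.46% fell and 3.16% rose. With the mouse as a replicate block edgeR called 10 of them lower and DESeq2 5. These fits called 1061 and 356 of all 14412 genes lower. Fosb, an activity-regulated transcription factor, fell by 0.95 (SE 0.12, edgeR adjusted p = 0.00176), and Penk, the precursor of enkephalins, by 0.70 (SE 0.11, adjusted p = 0.00535). Nr4a2, an orphan nuclear receptor, and Ppargc1a, a coactivator of mitochondrial genes, fell by 0.78 and 0.38 (adjusted p = 0.0108 and 0.0139), and the call of Ppargc1a ended without left 1037 (adjusted p = 0.0651). By DESeq2 with the replicate block the calls of Penk and Ppargc1a ended (adjusted p = 0.103 and 0.0966). Nr4a1 had -0.47 (adjusted p = 0.0761). On the side of supply, Th was the single gene called in the main fit among 8 of synthesis, transport and breakdown. Of these 5 had values below 0 and 3 above. Slc6a3 and Slc18a2 had -0.76 and -0.51 and did not pass (edgeR adjusted p = 0.0727 and 0.0787). The list median was -0.28, or -0.20 when library totals alone set the scale. Among 10 genes of adenosine receptors and metabolism 0 were called by edgeR, with a median of -0.20. Library totals alone as the scale gave a median of -0.12 and 1 gene called, higher on the left. Adora1, the receptor gene whose product inhibits the cyclase, had -0.28 (adjusted p = 0.0643), and Adk, adenosine kinase, had -0.16. DESeq2 called 1 gene of this list higher and 1 lower, edgeR with the replicate block 2 lower, and edgeR 1 gene without left 1037 or without right 1039.

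Of 14 genes of other amine receptors of the bulb 2 rose and 4 fell, against 3.16% and 6.46% of all genes tested. The median was -0.14, or -0.05 when library totals alone set the scale. Without left 1037 the count was 0 higher and 4 lower, and by DESeq2 with the replicate block 0 higher and 2 lower. Htr5b, a serotonin receptor gene, averaged 0.885 ± 0.0312 CPM in left libraries (SD, n = 2) and 3.81 ± 0.346 CPM in right ones (SD, n = 3), and fell by 2.18 (SE 0.29, edgeR adjusted p = 0.00237). Chrm2, a muscarinic receptor of the Gi class, fell by 0.79 (adjusted p = 6.06e-04), Htr2a by 0.68 (adjusted p = 0.00842) and Adra1a by 0.61 (adjusted p = 0.00655). The genes that rose were Htr1a by 0.77 (edgeR adjusted p = 0.0316) and Adra2a by 0.58 (adjusted p = 0.0156). The call of Htr2a ended by DESeq2 with the replicate block (adjusted p = 0.201). Chrm1 had -0.17 and did not pass. Dropping left 1037 brought the median to -0.001, and dropping left 1039 to -0.31.

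**Figure D5:**
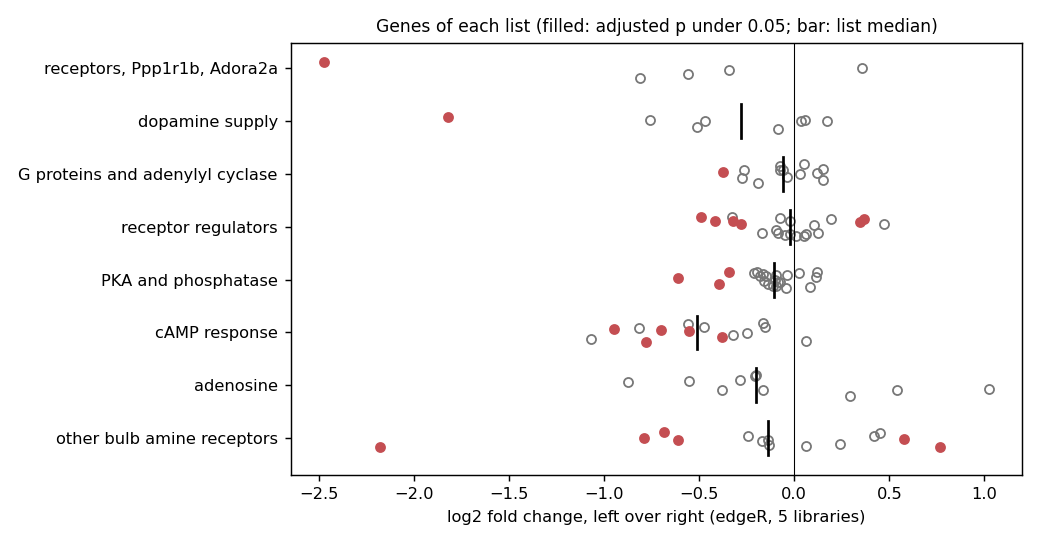
Log2 fold change of each tested gene (points, filled where the adjusted p is under 0.05) among the 5 tested receptor, Ppp1r1b and Adora2a genes and in 7 lists of related genes, whose medians are black bars. Drd1, at -2.47, lies farthest from 0 of the genes plotted, followed by Htr5b at -2.18 and Th at -1.82.

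Markers of some cell types differed between the sides, while 6.46% of all genes tested fell and 3.16% rose. Of 8 markers of olfactory sensory neurons 5 fell and 0 rose, and their summed level was 56.6 to 112 CPM on the left and 292 to 361 CPM on the right. Of 8 microglia markers 2 rose and 0 fell (336 to 351 CPM on the left and 259 to 273 CPM on the right). Of 8 astrocyte markers 3 rose and 1 fell (3144 to 3157 CPM and 2587 to 2821 CPM). In the oligodendrocyte, endothelial and mural, and cortical lists, 1 of 8 markers each fell and 0 rose. Of 8 olfactory ensheathing cell markers 2 fell and 0 rose. Of 7 mitral and tufted cell markers 2 rose and 1 fell. Of 7 tested cerebellar granule cell markers 3 rose and 1 fell, and of 7 tested Purkinje cell markers 0 were called. The 14 bulb interneuron markers summed to 3771 to 4261 CPM on the left and 4652 to 5030 CPM on the right, with 6 lower and 1 higher. Among those lower, Gad1 averaged 1389 CPM on the left and 1946 CPM on the right, and Gad2 374 and 577 CPM. Slc32a1, Sp8, Tpbg and Etv1 were also lower. The gene that rose, Calb2, averaged 565 CPM on the left and 445 CPM on the right (log2 fold change 0.26, edgeR adjusted p = 0.0364). Dlx1, Dlx2, Dlx5, Dlx6, Meis2, Calb1 and Pax6 were not called. Their log2 fold changes were -0.058, 0.015, -0.03, 0.096, -0.171, 0.232 and 0.118. The part of these cell types in the Drd1 result was not tested. Striatal projection neurons, which are rich in Drd1, Drd2, Ppp1r1b and Adora2a, lie near the bulb. Of 16 of their measured markers 13 were tested, of which 0 rose and 3 fell, namely Pde10a, Penk and Syndig1l, and they summed to 413 to 498 CPM on the left and 561 to 576 CPM on the right. Isl1, Six3 and Ido1, which mark these neurons, each stood below the level of 3 reads in all 5 libraries, and Six3 had 0 reads. Rgs9 stood at 11.99 and 12.6 CPM in left 1037 and left 1039 and at 14.9, 15.2 and 13.5 CPM in right 1037, 1038 and 1039. Gpr6 stood at 0.648 and 1.66 CPM in the left libraries and at 0.962, 1.39 and 1.02 CPM in the right ones. Neither was called. With all 6 libraries every call named in these lists ended, and Adcy1, Rgs7bp and Pde10a then had values above 0 (2.12, 0.11 and 0.90).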

How the data were processed

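The deposited table gives read counts per gene and library, as whole numbers with no normalization, and an RPKM value and a length per gene, per the file headers. The deposited RPKM values were not used: they follow from the counts and the length (largest difference 3.6e-11), and for 78.34% of annotated genes that length equalled the genomic span with introns, to within 1 base. The submitters' processing notes name, without saying what each did, the build GRCm38 and the tools TopHat2, cutadapt 1.2.1, DESeq 1.18.0 and HTSeq 0.6.1p2. Strand use and the treatment of reads of several positions are not given in the sources used here. Of 22095 genes 21852 matched a symbol by identifier, 0 rows named no gene, 0 columns belonged to other samples, and 0 pairs of libraries were identical. Annotation was GENCODE M21 on GRCm38.

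CPM were computed on library totals, where 3 reads are 0.192 to 0.206 CPM. The sides were tested with edgeR 4.0.16 in R 4.3.3 (glmQLFit, glmQLFTest, TMM, filterByExpr), with a term for side alone, and p-values were adjusted by Benjamini-Hochberg across every gene that passed the filter. An SE is the fold change divided by the square root of F. DESeq2 1.42.0, limma 3.58.1 (voom), other scalings and filters, a replicate block, 6 libraries and leave-outs were alternatives. The fit was also run on simulated data without a mouse effect, which cannot show what ignoring the pairing does. Both bulbs of a mouse are paired by the labels: their deviations from the group means correlated at 0.271 in the 4 libraries of mice 1037 and 1039, a single value for both mice by construction. The main fit treats the bulbs as independent.

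The 7 genes, the lists and the setting apart of left 1038 were chosen with earlier results of these data known. Named genes are the 7, Th, up to 4 called genes by smallest p and the 2 of highest CPM in each list, and the 3 closest in pattern. Gnal, Adcy5, Htr1a, Adra2a, Slc6a3, Slc18a2, Dlx1 and the cell type markers named were chosen after their values were seen. Gpr52 is not analysed here. Some genes that the rule names are not reported here.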

Additional observations from a re-analysis of the deposited data

Results flagged for a closer look

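Ppp1r1b stood at 128 CPM (95% Poisson interval 122 to 134 CPM) in the library labelled left 1038, which entered no comparison of sides, against 22.4 to 25.2 CPM in the right libraries. The level lay above that of every control library, which brought it here. In the same library Pcp2 and Calb1, which mark cerebellar Purkinje cells, stood at 200.5 and 914 CPM, and at no more than 0.449 and 17.5 CPM in the other 5. The part of such cells in the Ppp1r1b level was not tested.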

How the results depend on the processing

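Drd1 was called lower in every 5-library fit that gave an adjusted p. Leaving out 1 library at a time gave Drd1 -2.88 to -2.15 (edgeR adjusted p 0.00205 to 0.00797), Ppp1r1b 0.19 to 0.51 and 660 to 1124 genes called in all, against 1387. With the replicate block edgeR gave Drd1 -2.46 (adjusted p = 2.39e-04) and called 1553 genes, 492 higher and 1061 lower. In edgeR the block changed no call among the 7 genes, and with DESeq2 it left 432 genes called. DESeq2 gave no adjusted p for Drd1 with the block, nor for Drd2 and Drd5 in either fit or Adora2a with the block, so these fits give a fold change but no call (Drd1 -2.48, unadjusted p = 4.97e-05 by DESeq2 with the block). With all 6 libraries 0 genes were called, also with the block, and Drd1 had -3.03 and with the block -3.33 (adjusted p = 0.554 and 0.697), Th -2.26 and -2.52. Ppp1r1b passed by total library size only (0.44) and without left 1039 (0.51). Exon union lengths gave Ppp1r1b 10.9 on the left and 8.07 on the right and Adora2a 1.12 CPM per kb on the left, and TMM library sizes gave Adora2a 3.33 CPM on the left. The 5 ratios kept their sign in all 40 alternative values, of which 5, the ratios over 6 libraries with 1 count added, were chosen after seeing the data. Depth limits Drd3 and Drd4, with 7 and 1 reads on the left in all.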
